A study of Mus musculus with 12 samples.

Results

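The genes that write, copy and erase DNA methylation were described in the mouse mammary tumour line PYMT-R221A after a compound aimed at the methylation reader MBD2 and after knockdown of Mbd2. The set holds 10 genes, chosen by symbol from the deposited table of 55335 genes: Dnmt1, Dnmt3a, Dnmt3b, Uhrf1, Uhrf2, Tet1, Tet2, Tet3, Tdg and Hells. All 10 were found and all 10 passed the filter on low counts, which left 14935 genes. Polyadenylated RNA was sequenced in 4 groups of 3 libraries: cells given KCC-07 at 40 µM, cells transfected with siRNA against Mbd2 (siMBD2), cells transfected with scramble siRNA, and control cells. The series title describes KCC-07 as a small molecule that inhibits the MBD2 pathway. The labels call the control cells wild type, name no vehicle for them and give no duration, so a part of a vehicle in the difference between KCC-07 and control cannot be told apart. All groups come from 1 cell line, and the replicates are named as biological. In bulk RNA of this kind, fewer cells expressing a gene and less RNA of it per cell cannot be told apart.

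As background, methylation of cytosine in CpG pairs is set on unmethylated DNA by the de novo enzymes DNMT3A and DNMT3B. It is copied to the new strand after replication by DNMT1, which UHRF1 guides to half-methylated sites, and the remodelling ATPase HELLS opens packed chromatin to these enzymes. The TET dioxygenases oxidise methylcytosine, and the glycosylase TDG cuts out the more oxidised forms so that repair restores an unmethylated base. UHRF2 is a relative of UHRF1 that binds hydroxymethylated DNA. MBD2 itself neither sets nor removes the mark: it binds methylated CpG and brings in a repressive remodelling complex.

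Counts summed to between 25.8 and 34.0 M per library. No replicates held identical values, and every pair within a group differed by more than sampling noise (chi-square per degree of freedom at least 3.34). The siRNA target checked the labels: Mbd2 stood at 35.7, 34.7 and 30.6 CPM (counts per M reads, TMM-scaled) in siMBD2 libraries and at 75.8, 83.2 and 72.5 CPM in scramble libraries (log2 fold change -1.20, edgeR adjusted p = 0.000197), and it was 75.1, 72.8 and 77.1 CPM in KCC-07 and 72.9, 75.9 and 76.5 CPM in control libraries. All 10 epithelial markers were detected, with Krt8 at a mean of 505 CPM and Epcam at 257 CPM. With KCC-07 6 of them passed as higher (5.65% of all genes passed), while the other 4 lay below 0. With the 6 KCC-07 and control libraries fitted alone, 0.00688% of all genes passed. In that fit Cdh1, Krt19 and Cldn3 lost their calls (edgeR adjusted p = 0.264, 0.242 and 0.137). The part of these differences in the results on KCC-07 was not tested. Of 8 immune markers 6, and of 5 endothelial markers 4, averaged below 1 CPM, with Adgre1 and Cdh5 at 0 in every library. Of 10 fibroblast and mesenchymal markers Vim (821 CPM), Pdgfra (122.7), Col1a1 (28.8) and Pdgfrb (7.47) were detected above 1 CPM, while the other 6, with Dcn and Lum, which define fibroblasts, averaged below 1. These 10 summed to 439 CPM in KCC-07 replicate 3 against 966 and 898 CPM in the other KCC-07 libraries, and to 835 to 1017 CPM in siMBD2, 981 to 1172 in scramble and 965 to 1188 in control libraries; the part of this in the values of that KCC-07 library was not tested. The third library of each group stood apart from the first pair, with mitochondrial transcripts at 3.90% of counts against 1.82% and 1.55% in KCC-07 and at 2.81% against 1.45% and 1.47% in control.

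None of the 10 genes passed the test with KCC-07 or with siMBD2, taking as threshold a Benjamini-Hochberg adjusted p under 0.05 in edgeR's quasi-likelihood test. Between KCC-07 and control 0 of 10 passed, where 5.65% of all tested genes did. At an unadjusted p under 0.05 none of them passed either, against 25.1% of all genes, and DESeq2 called 0 of them, where it called 12.2% of all genes. Between siMBD2 and scramble 0 of 10 passed, where 0.0402% of all tested genes did. Dnmt1 alone of the 10 reached an unadjusted p under 0.05 there, against 5.26% of all genes, and DESeq2 called 0 of them and 0.618% of all genes. The effect of KCC-07 and the effect of siMBD2 did not differ past the threshold for any of the 10 (0.656% of all genes passed; 0 of 10 at an unadjusted p under 0.05, against 14.6% of all genes; DESeq2 called 0 of 10 and 3.87% of all genes). Between scramble and control 1 of 10 passed: Dnmt3b rose, where 8.79% of all tested genes passed and 4.71% passed as higher. These groups differ by siRNA transfection, and whether they share batches is unclear, so a part of batch cannot be told apart. KCC-07 and scramble are both set against the same control libraries, so these comparisons are not independent.

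Most of the genes nonetheless lay on 1 side of 0 in the siRNA arm. Between siMBD2 and scramble 8 of 10 log2 fold changes were below 0, with a median of -0.11 against 0.00 over all genes, and for 5 genes (Dnmt1, Uhrf1, Hells, Tet1 and Tet3) every siMBD2 library lay below every scramble library. Over all tested genes 11.6% were separated in this direction. Between KCC-07 and control the median was 0.05 against 0.02 over all genes. Uhrf2 was separated upward, as were 12.3% of all genes, and Tdg downward, as were 10.6%. Between scramble and control the median was 0.24 against -0.03 over all genes. Dnmt1, Dnmt3a, Dnmt3b, Uhrf1 and Hells were separated upward, where 16.4% of all genes were, and Uhrf2 downward, where 16.8% were.

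**Figure D1:**
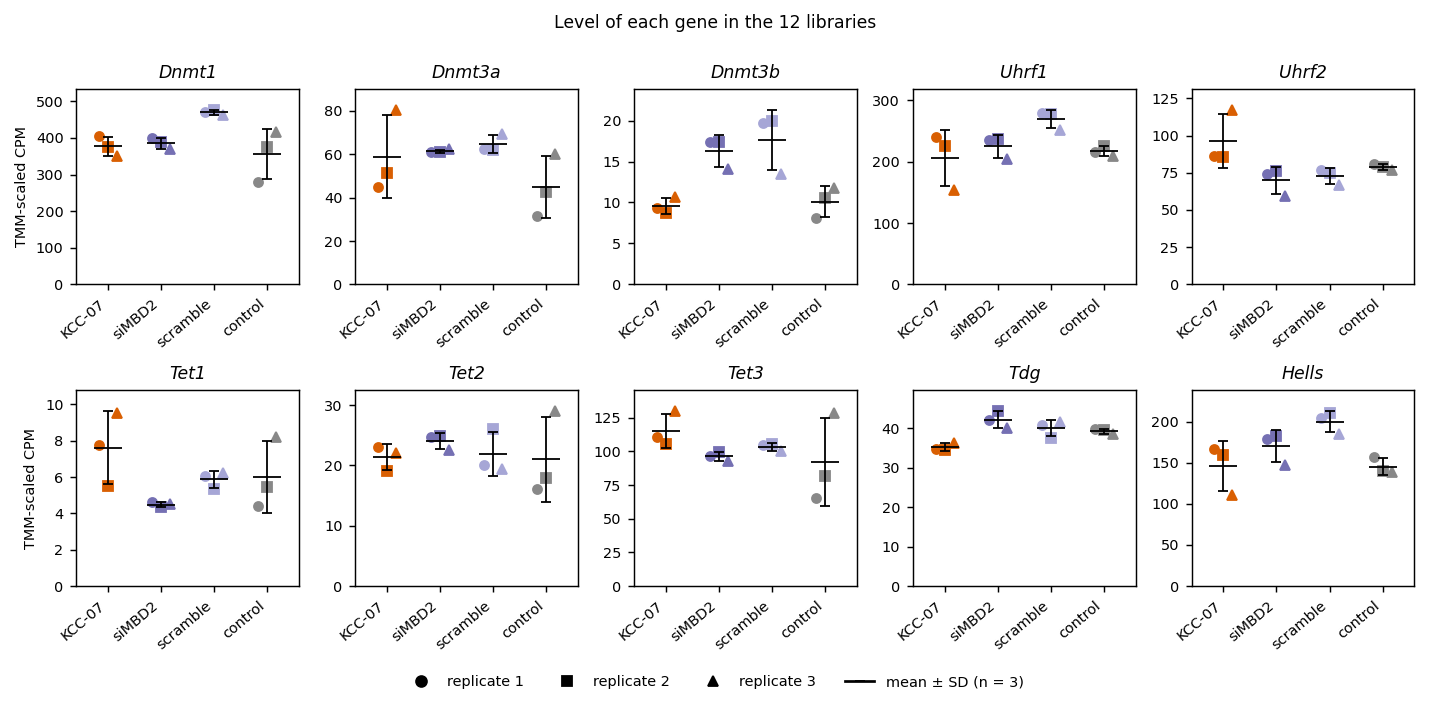
TMM-scaled CPM of the 10 genes in each of the 12 libraries (symbols mark replicates 1, 2 and 3), with the mean and SD of the 3 libraries of each group. Dnmt1, Uhrf1 and Hells are highest in the scramble libraries, and the third control library stands above the other control libraries for Dnmt1, Dnmt3a, Dnmt3b, Tet1, Tet2 and Tet3.

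Levels between genes were compared as CPM per kilobase of exon. In control cells Uhrf1 (51.1 ± 1.92 CPM per kb, SD, n = 3) and Dnmt1 (48.3 ± 9.34) were the highest and did not differ beyond their spread. Hells followed at 20.1 ± 1.45 CPM per kb and Uhrf2 at 9.21 ± 0.242. Maintenance genes thus headed the order. Tdg (7.31 ± 0.122 CPM per kb) and Tet3 (5.51 ± 1.96) did not differ beyond their spread, nor did Dnmt3a (2.70 ± 0.868) and Dnmt3b (1.98 ± 0.368). Tet2 (1.24 ± 0.414 CPM per kb) and Tet1 (0.390 ± 0.128) were the lowest. Tet3 was the most abundant of the TET genes and Tet1 the least in all 4 groups. The order was the same in every group except that Uhrf1 and Dnmt1 changed places, as did Tdg and Tet3. In KCC-07 cells Tet3 averaged 6.91 ± 0.764 CPM per kb and Tdg 6.55 ± 0.182. The place of Tdg in this order is uncertain because of its near-identical copies Tdg-ps and Gm9855. In control libraries Tdg averaged 39.3 CPM alone and 97.3 CPM with both copies added. The lengths are those of all exons of a gene merged, UTRs included, so the level of a gene with unused exons is understated.

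**Figure D2:**
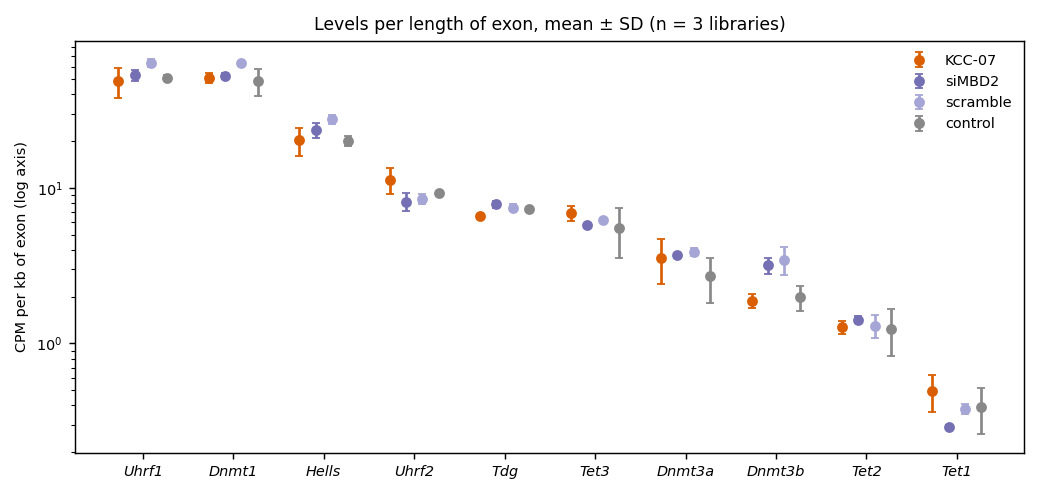
Mean level per kilobase of merged exon (log axis) with its SD over 3 libraries, for each gene and group. The genes run by their level in control cells, with Uhrf1 and Dnmt1 near 50 CPM per kb and Tet1 below 1. The level of Tdg is uncertain because of near-identical copies.

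Dnmt1, the maintenance methyltransferase (chromosome 9, from 20907209 to 20959888, minus strand, GRCm38.p6), stood at 405, 374 and 351 CPM in KCC-07 libraries and at 281, 374 and 415 CPM in control libraries. The groups overlapped, and control spread wider than KCC-07 (log2 fold change 0.08, 95% interval -0.19 to 0.35, edgeR adjusted p = 0.731). It stood at 399, 389 and 369 CPM in siMBD2 libraries and at 470, 478 and 463 CPM in scramble libraries. All siMBD2 libraries lay below all scramble libraries, by a log2 fold change of -0.29 (95% interval -0.55 to -0.02, unadjusted p = 0.0389, edgeR adjusted p = 0.891), and the pair differences were -0.24, -0.30 and -0.33. This did not pass over all genes, but it did with the 6 siRNA libraries fitted alone (edgeR adjusted p = 0.0352, where 1.26% of genes passed) and with the replicate block added to that fit (edgeR adjusted p = 4.39e-05, where 19.8% passed). Scramble lay above control, without overlap, by 0.40 (95% interval 0.13 to 0.67, edgeR adjusted p = 0.0655). This passed with DESeq2 (adjusted p = 0.0261, where 15.5% of genes passed) and without control replicate 3 (edgeR adjusted p = 0.0120, where 20.4% did). It did not pass without any other 1 library (up to 0.180) or with the 6 libraries of the comparison alone (edgeR adjusted p = 0.134).

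Uhrf1, which recognises half-methylated CpG (chromosome 17, from 56303321 to 56323486, plus strand), stood at 239, 226 and 154 CPM in KCC-07 libraries and at 216, 226 and 210 CPM in control libraries. The third KCC-07 library was the lowest of all 12, and the groups overlapped (log2 fold change -0.08, 95% interval -0.38 to 0.23, edgeR adjusted p = 0.779). Without that library the log2 fold change was 0.10. Uhrf1 stood at 236, 236 and 204 CPM in siMBD2 libraries and at 280, 277 and 252 CPM in scramble libraries. Every siMBD2 library lay below every scramble library (log2 fold change -0.26, SE 0.139, edgeR adjusted p = 1), with pair differences of -0.25, -0.23 and -0.31. The adjusted p was 0.00013 with the 6 siRNA libraries fitted alone with the replicate block, where 19.8% of genes passed, and 0.157 in that fit without the block. Scramble lay above control by 0.31 (SE 0.139, unadjusted p = 0.0468, edgeR adjusted p = 0.177). A pseudogene, Gm5648, matches 44.3% of the Uhrf1 transcript at 98.3% identity, but held only 5 to 37 counts per library.

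Hells, the remodelling ATPase also known as LSH (chromosome 19, from 38930915 to 38971051, plus strand), followed Uhrf1 across the libraries. It stood at 166, 160 and 111 CPM in KCC-07 libraries and at 157, 140 and 138 CPM in control libraries, and these overlapped (log2 fold change 0.01, 95% interval -0.31 to 0.32, edgeR adjusted p = 0.985). It stood at 179, 183 and 147 CPM in siMBD2 libraries and at 204, 210 and 185 CPM in scramble libraries. The siMBD2 libraries were all lower (log2 fold change -0.23, SE 0.143, edgeR adjusted p = 1), with pair differences of -0.19, -0.20 and -0.33. The edgeR adjusted p was 0.000788 with the 6 siRNA libraries fitted alone with the replicate block, where 19.8% of genes passed. Scramble lay above control, without overlap, by 0.46 (SE 0.143, unadjusted p = 0.00768, edgeR adjusted p = 0.0680). This passed with DESeq2 (adjusted p = 0.0243, where 15.5% of genes passed) and with the 6 libraries of the comparison alone (edgeR adjusted p = 0.0362, where 6.21% did). It also passed without the third libraries (edgeR adjusted p = 0.000825, where 41.1% of genes did). It passed in none of the 6 fits that left out 1 library (edgeR adjusted p = 0.0851 to 0.194).

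Uhrf2, the relative that binds hydroxymethylated DNA (chromosome 19, from 30030513 to 30093722, plus strand), stood at 86.3, 85.8 and 117 CPM in KCC-07 libraries and at 81.2, 79.0 and 77.1 CPM in control libraries. Every KCC-07 library lay above every control library (log2 fold change 0.29, 95% interval -0.0026 to 0.58, unadjusted p = 0.0518, edgeR adjusted p = 0.202). The third pair gave most of the difference, with pair differences of 0.09, 0.12 and 0.61, and without the third KCC-07 library the log2 fold change was 0.12. In the siRNA arm Uhrf2 stood at 74.2, 76.3 and 59.6 CPM in siMBD2 libraries and at 76.5, 74.8 and 66.5 CPM in scramble libraries, which overlapped (log2 fold change -0.05, edgeR adjusted p = 1). Scramble lay below control (log2 fold change -0.12, edgeR adjusted p = 0.579).

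Uhrf1, Hells and Dnmt1 each have a promoter window with letters that the windows of the other 7 genes lack. Other windows of Uhrf1 and Dnmt1 lack them too. The letters are printed because these genes are the highest expressed per length and the ones whose siMBD2 libraries lay below scramble in the maintenance group. The RefSeq table (GRCm38.p6) gave 15 promoter windows for the 10 genes, each of 250 bases before and 50 bases after a start. They were searched on both strands for the letters of the E2F consensus, TTTCCCGC, TTTCGCGC, TTTGCCGC and TTTGGCGC. E2F factors switch on genes of DNA replication. A match is in capitals in these stretches, each read along the strand of its gene.
Uhrf1, chr17:56304117-56304146, 185 bases before the start: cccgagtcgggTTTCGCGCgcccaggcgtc
Hells, chr19:38930917-38930946, 62 bases before the start: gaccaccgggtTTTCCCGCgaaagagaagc
Dnmt1, chr9:20952824-20952853, 219 bases before the start, reverse strand: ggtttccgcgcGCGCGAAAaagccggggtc
Dnmt1, chr9:20952574-20952601, 33 bases after the start: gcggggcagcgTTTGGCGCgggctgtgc
Of all 32851 promoter windows 744 (2.26%) hold such a match. In the list of 28 S-phase genes, 10 of 26 windows do, in 10 of the 23 genes with a window. The matching windows of Uhrf1, Hells and Dnmt1 hold 33, 34 and 33 CpG pairs, where the median of all windows is 7. The share among windows equally rich in CpG was not determined. The Uhrf1 match lies in an intron of the longer transcript in GENCODE, and those of Hells and Dnmt1 lie in annotated exons.

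The 250 bases before the Uhrf1 start with the match and before the Uhrf2 start are printed for these relatives. Both are rich in CpG, with 33 and 28 pairs in their 300-base windows where the median of all windows is 7. The exact E2F letters are in the first alone. The other Uhrf1 window, chr17:56303087-56303386, held 12 CpG pairs and 0 E2F matches.
Uhrf1, chr17:56304063-56304312, plus strand: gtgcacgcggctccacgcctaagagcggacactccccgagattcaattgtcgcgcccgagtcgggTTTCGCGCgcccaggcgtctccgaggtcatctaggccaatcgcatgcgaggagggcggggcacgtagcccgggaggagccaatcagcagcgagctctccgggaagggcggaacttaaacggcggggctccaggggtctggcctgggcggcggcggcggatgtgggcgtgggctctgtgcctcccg
Uhrf2, chr19:30030263-30030512, plus strand: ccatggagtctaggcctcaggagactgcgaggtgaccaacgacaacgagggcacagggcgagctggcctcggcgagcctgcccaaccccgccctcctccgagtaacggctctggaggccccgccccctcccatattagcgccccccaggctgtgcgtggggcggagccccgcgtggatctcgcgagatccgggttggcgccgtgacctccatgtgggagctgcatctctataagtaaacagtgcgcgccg
The cell cycle element CHR, searched as TTTGAA and TTCGAA, was in a window of Dnmt3b and in another window of Dnmt1, where 19.23% of all windows hold it, and overlapped no E2F match. The members' windows held between 2 and 57 CpG pairs, the most in Tet2. These matches describe letters only, and binding was not measured.

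Uhrf1 and Hells also tracked the S-phase genes library by library. The CPM of the 28 S-phase genes summed to 3721, 3648 and 2678 in KCC-07 libraries, 3755, 3761 and 3347 in siMBD2 libraries, 4356, 4286 and 4017 in scramble libraries and 3722, 3692 and 3426 in control libraries. Across the 12 libraries log2 Uhrf1 correlated with the log2 of this sum at Pearson r = 0.989 (Spearman rho 0.923), and at 0.986 after the group means were subtracted. Hells did so at r = 0.930 (rho 0.930; 0.965 within groups). Without the 2 libraries farthest from the median of the sum, KCC-07 replicate 3 and scramble replicate 1, r was 0.957 for Uhrf1 and 0.858 for Hells. Dnmt1 followed the sum less, at r = 0.535 (rho 0.685) and 0.160 within groups. These are descriptions over libraries that share groups, depth and scaling, and no test is given. All 28 S-phase genes lay below 0 between siMBD2 and scramble (median -0.17), and 19 of them were separated downward, where 11.6% of all genes were. With edgeR 0 of them passed, where 0.0402% of all genes did. DESeq2 called 2, where it called 0.618% of all genes, and 5 reached an unadjusted p under 0.05, against 5.26% of all genes. With the 6 siRNA libraries fitted alone with the replicate block 22 of the 28 were called lower, where 19.8% of all genes passed. Between scramble and control 25 of the 28 lay above 0 (median 0.20), and 14 were separated upward, where 16.4% of all genes were. Of the 28, 5 passed as higher, where 4.71% of all genes did. The count was 3 with the 6 libraries alone, where 6.21% of all genes passed in either direction. It was 7 with DESeq2, where 15.5% passed, and 1 to 6 with 1 library left out, where 1.91% to 20.4% passed. Between KCC-07 and control 18 of the 28 lay below 0 (median -0.17), while 2 passed as higher, the transcription factor genes E2f1 (log2 fold change 0.52, edgeR adjusted p = 0.0215) and E2f2 (0.71, edgeR adjusted p = 0.0115), where 5.65% of all genes passed; neither passed with the 6 libraries alone, nor E2f1 without control replicate 1 (edgeR adjusted p = 0.0653). Of 20 late cell cycle (G2/M) genes 17 lay below 0 and 3 above between siMBD2 and scramble, with 3 separated downward, where 11.6% of all genes were. Between scramble and control 15 lay below and 5 above, with 7 separated downward (16.8% of all genes) and 1 upward (16.4%). Between KCC-07 and control 16 lay below and 4 above, while 2 passed as higher and 1 as lower, where 5.65% of all genes passed. The part of the S-phase level in the lower Uhrf1 and Hells of siMBD2 libraries, and in the higher Uhrf1, Hells and Dnmt1 of scramble libraries, was not tested.

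**Figure D3:**
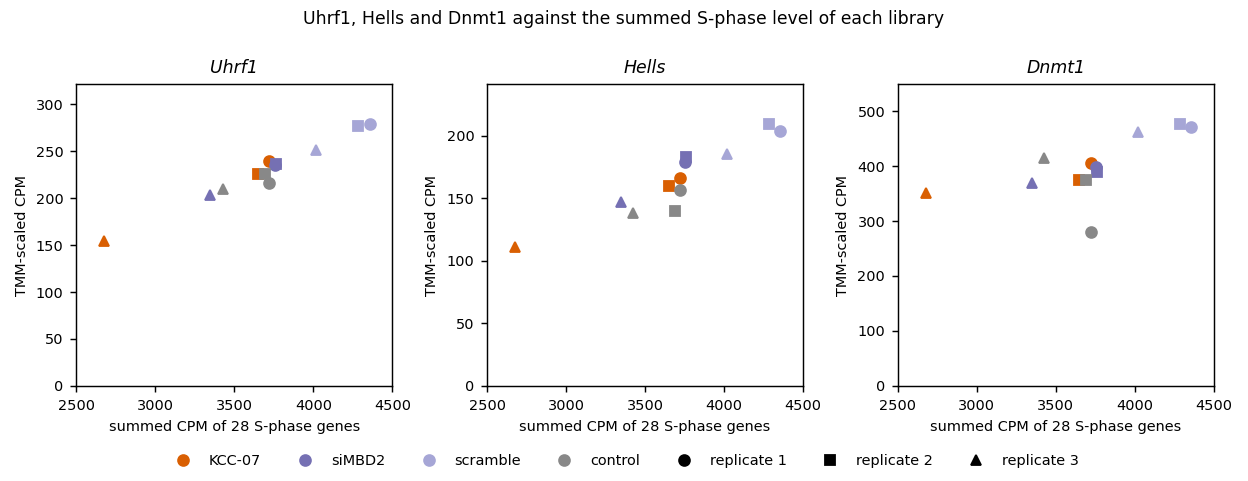
TMM-scaled CPM of Uhrf1, Hells and Dnmt1 against the summed CPM of 28 S-phase genes in each of the 12 libraries (colours mark groups, symbols replicates; the x axis does not start at 0). Uhrf1 and Hells rise with the sum, with KCC-07 replicate 3 at the low end and the scramble libraries at the high end, while Dnmt1 in control replicate 1 lies below libraries of a similar sum.

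Dnmt3b, a de novo methyltransferase (chromosome 2, from 153649450 to 153687730, plus strand), was higher in each siRNA library than in any KCC-07 or control library. It stood at 9.31, 8.75 and 10.7 CPM in KCC-07 libraries and at 8.05, 10.5 and 11.7 CPM in control libraries, with overlap (log2 fold change -0.08, 95% interval -0.49 to 0.33, edgeR adjusted p = 0.836). It stood at 17.4, 17.3 and 14.1 CPM in siMBD2 libraries and at 19.7, 19.9 and 13.4 CPM in scramble libraries, also with overlap (log2 fold change -0.12, edgeR adjusted p = 1). Between scramble and control Dnmt3b rose by 0.81 on the log2 scale (SE 0.187, edgeR adjusted p = 0.0234), a mean of 17.7 ± 3.67 CPM against 10.1 ± 1.88 CPM (SD, n = 3 each). All scramble libraries lay above all control libraries, but the third ones came close, at 13.4 CPM in scramble against 11.7 CPM in control. The call was lost without any 1 of scramble replicates 1 and 2 and control replicates 1 and 2, with adjusted p up to 0.104, and with the 6 libraries of the comparison alone (edgeR adjusted p = 0.0636). It held with DESeq2 (adjusted p = 0.00123, where 15.5% of genes passed) and without the third libraries (log2 fold change 1.101, edgeR adjusted p = 0.000352, where 41.1% of genes passed). The rodent relative Dnmt3c matches 33.2% of the transcript at 93.9% identity and held 0 to 12 counts.

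Dnmt3a, the other de novo enzyme (chromosome 12, from 3806007 to 3914443, plus strand), stood at 45.0, 51.3 and 80.7 CPM in KCC-07 libraries and at 31.7, 42.7 and 60.4 CPM in control libraries. The groups overlapped, yet each KCC-07 library lay above the control library of its own number, by log2 differences of 0.50, 0.26 and 0.42. The log2 fold change was 0.39 (SE 0.230, edgeR adjusted p = 0.312), and it passed with the replicate block (0.40, edgeR adjusted p = 0.00909), a fit in which 21.8% of all genes passed. With the block in the 6 libraries of the comparison alone it did not pass (edgeR adjusted p = 0.0914, where 2.84% of genes did). Dnmt3a stood at 61.1, 61.1 and 62.3 CPM in siMBD2 libraries and at 62.4, 62.0 and 69.3 CPM in scramble libraries (log2 fold change -0.07, edgeR adjusted p = 1). The effects of KCC-07 and siMBD2 differed by 0.46 (edgeR adjusted p = 0.543, and 0.0351 with the block, where 6.90% of genes passed). Scramble lay above control without overlap by 0.52 (edgeR adjusted p = 0.169). Without control replicate 3 this passed (0.80, edgeR adjusted p = 0.0281, where 20.4% of genes did). An antisense gene over 133 of its exon bases had no count.

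Tet3 (chromosome 6, from 83362373 to 83459084, minus strand) was the TET gene with the most reads. It stood at 111, 106 and 130 CPM in KCC-07 libraries and at 65.6, 81.9 and 129 CPM in control libraries. The third control library lay far above the others, and only there were the groups alike, with pair differences of 0.76, 0.36 and 0.01 (log2 fold change 0.33, SE 0.189, edgeR adjusted p = 0.307). Without control replicate 3 Tet3 passed, at a log2 fold change of 0.65 (edgeR adjusted p = 0.0101, where 13.9% of genes passed), and without the third library of every group at 0.56 (edgeR adjusted p = 0.00400, where 25.6% passed). Without control replicate 3 the effect of KCC-07 also differed from that of siMBD2, by 0.75 (edgeR adjusted p = 0.0400, where 2.10% of genes passed). In the siRNA arm it stood at 96.7, 99.5 and 92.5 CPM in siMBD2 and at 105, 106 and 100 CPM in scramble libraries. All siMBD2 libraries were lower, by a small step (log2 fold change -0.10, 95% interval -0.52 to 0.31, edgeR adjusted p = 1). Scramble and control overlapped (log2 fold change 0.17, edgeR adjusted p = 0.598), and without control replicate 3 this comparison too passed (0.49, edgeR adjusted p = 0.0148, where 20.4% of genes did).

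Tet1 (chromosome 10, from 62804570 to 62908996, minus strand) had the lowest mean CPM of the 10 genes in every group, with 130 to 284 counts per library. It stood at 7.74, 5.53 and 9.55 CPM in KCC-07 libraries and at 4.39, 5.46 and 8.23 CPM in control libraries, with overlap (log2 fold change 0.33, 95% interval -0.19 to 0.86, edgeR adjusted p = 0.416). It stood at 4.61, 4.37 and 4.49 CPM in siMBD2 libraries and at 6.06, 5.35 and 6.23 CPM in scramble libraries. Those did not overlap (log2 fold change -0.39, SE 0.245, edgeR adjusted p = 1). Of the 10 genes Tet1 had the largest difference between the effects of KCC-07 and siMBD2, 0.72 on the log2 scale (95% interval -0.03 to 1.47, unadjusted p = 0.0579, edgeR adjusted p = 0.363), which did not pass.

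Tet2 (chromosome 3, from 133463679 to 133545139, minus strand) stood at 23.1, 19.0 and 22.0 CPM in KCC-07 libraries and at 16.1, 17.9 and 29.0 CPM in control libraries. It stood at 24.7, 24.9 and 22.6 CPM in siMBD2 libraries and at 20.01, 26.1 and 19.5 CPM in scramble libraries. Both pairs of groups overlapped, with log2 fold changes of 0.03 (95% interval -0.41 to 0.47) for KCC-07 and 0.14 (95% interval -0.30 to 0.58) for siMBD2. Neither passed (edgeR adjusted p = 0.949 and 1), nor did scramble against control (0.06, edgeR adjusted p = 0.879).

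Tdg, the glycosylase gene (chromosome 10, from 82629828 to 82650799, plus strand), had the smallest standard errors of the 10. It stood at 34.8, 34.5 and 36.3 CPM in KCC-07 libraries and at 39.8, 39.5 and 38.5 CPM in control libraries. Every KCC-07 library lay lower, by a log2 fold change of -0.16 (SE 0.0811, 95% interval -0.33 to 0.02, edgeR adjusted p = 0.250), and the pair differences were -0.19, -0.19 and -0.09. It stood at 42.0, 44.3 and 40.1 CPM in siMBD2 libraries and at 40.8, 37.6 and 41.5 CPM in scramble libraries, with overlap (log2 fold change 0.08, edgeR adjusted p = 1). Tdg is uncertain because of near-identical copies. The pseudogene Tdg-ps matches 84.8% of its transcript at 98.7% identity and held 187 to 414 counts, and Gm9855 matches 34.1% at 99.2% and held 1350 to 1727 counts, more than Tdg itself with 950 to 1359. Gm9855 averaged 48.0 ± 3.34 CPM in KCC-07 and 46.8 ± 2.06 CPM in control libraries (log2 fold change 0.03, edgeR adjusted p = 0.842). The sum of Tdg and both pseudogenes was 90.3, 90.9 and 95.1 CPM in KCC-07 libraries and 96.6, 100.3 and 94.9 CPM in control libraries. On that sum the groups overlapped, with means of 92.1 ± 2.60 CPM in KCC-07 and 97.3 ± 2.77 CPM in control (SD, n = 3 each). Glt8d2 on the opposite strand overlaps 367 exon bases of Tdg, with 21 to 107 counts.

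**Figure D4:**
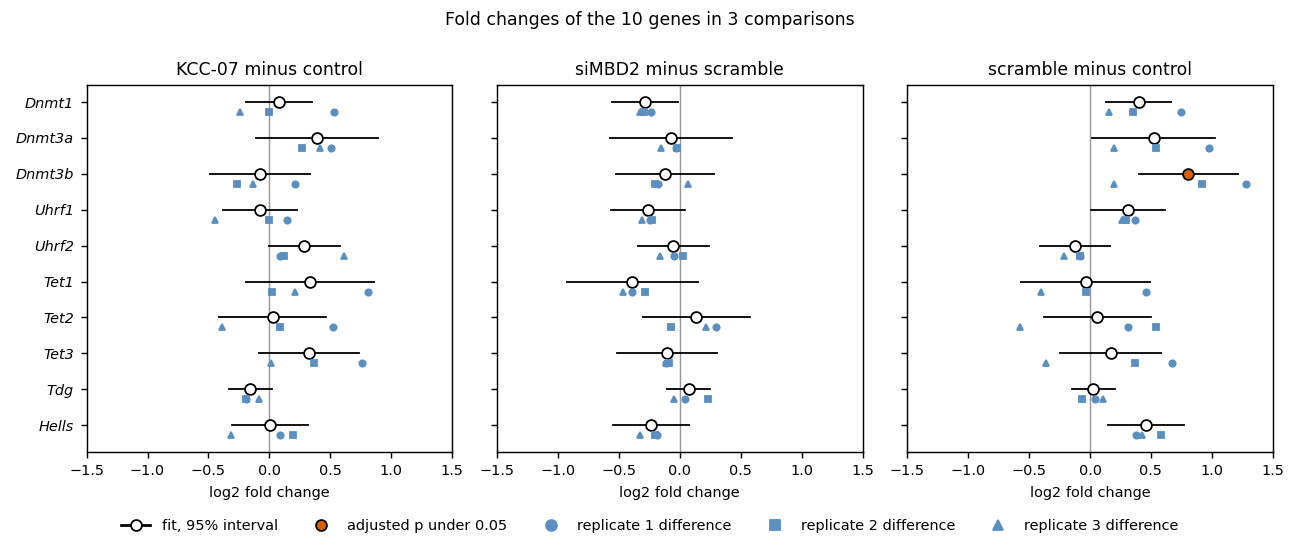
Log2 fold change of each gene in 3 comparisons, with its 95% interval from the fit of all 12 libraries (circles, filled where the adjusted p was under 0.05) and the difference of each pair of same-numbered libraries (small symbols). Dnmt3b between scramble and control is the filled one, and the siMBD2 pairs of Dnmt1, Dnmt3a, Uhrf1, Tet1, Tet3 and Hells all lie below 0.

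The third libraries moved these genes in a way that differed between groups. In control the third library was the highest of 3 for Dnmt1, Dnmt3a, Dnmt3b, Tet1, Tet2 and Tet3, by log2 steps of 0.35 to 0.81 over the mean of the first pair. In KCC-07 it was the highest for 6 genes, led by Dnmt3a (0.75), and the lowest for Uhrf1 (-0.59), Hells (-0.56) and Dnmt1 (-0.15). In siMBD2 it was the lowest for 8 genes and in scramble for 7. Within groups Dnmt3a ran with Tet3 (r = 0.84 across the 12 libraries after the group means were subtracted) and with Tet1 (0.83), and against Uhrf1 (-0.70) and Hells (-0.77). Uhrf1 and Hells ran together (0.94). These correlations are descriptions over 12 libraries that share groups, depth and scaling. Without the third libraries 1 gene passed for KCC-07 (Tet3, where 25.6% of all genes did) and 0 for siMBD2 (1.08% of all genes). For the difference of the effects 2 passed (Uhrf1 0.31 and Tet3 0.65, where 10.6% of genes did). For scramble against control 7 of 10 then passed, all but Uhrf2, Tet1 and Tdg, where 41.1% of all genes did.

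Among genes that work beside the 10, few passed with KCC-07. Of 13 tested maintenance and de novo cofactor genes 1 fell with KCC-07, Cdca7l, a relative of the HELLS partner CDCA7 (log2 fold change -0.52, SE 0.0974, edgeR adjusted p = 0.0130), while over the list the median was -0.11. Cdca7l passed with any 1 library left out. Of 19 methyl donor cycle genes 1 fell, Amd1, which draws S-adenosylmethionine into polyamine synthesis (-0.48, SE 0.104, edgeR adjusted p = 0.0227), and it was lost without KCC-07 replicate 1 or control replicate 2 (up to 0.0650). Of 21 repair and deamination genes 1 rose, Gadd45a, a stress gene linked to demethylation (1.02, SE 0.265, edgeR adjusted p = 0.0465), and it was lost without KCC-07 replicate 2 or 3 or control replicate 1 or 3 (up to 0.133). Of 20 genes of linked histone methylation 1 fell, Cbx3, a reader of methylated histone tails (-0.50, SE 0.102, edgeR adjusted p = 0.0187), lost without control replicate 1 (0.0534). None of 19 TET regulator and cofactor genes passed with KCC-07, and the lowest adjusted p was 0.0628, of Fh1, the fumarase gene (-0.44). DESeq2 called 1 of these 19 higher and 2 lower (12.2% of all genes passed there), and 5 reached an unadjusted p under 0.05, near the 25.1% of all genes that did. The edgeR counts of these lists stand against 5.65% of all genes. Fitted on the 6 libraries of the comparison alone, Cdca7l, Amd1, Gadd45a and Cbx3 lost their calls (edgeR adjusted p = 0.166, 0.225, 0.250 and 0.182, where 0.00688% of genes passed), also with the replicate block added (0.0621, 0.0619, 0.103 and 0.0564). Without the third libraries Gadd45a had a log2 fold change of 0.50 and did not pass (edgeR adjusted p = 0.0705).

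With siMBD2 none of these 5 lists had a gene past the threshold in edgeR, where 0.0402% of all genes passed. DESeq2 called 0 in each list, and 1 donor cycle gene and 1 repair gene reached an unadjusted p under 0.05, against 5.26% of all genes. With the 6 siRNA libraries fitted alone with the replicate block, where 19.8% of all genes passed, 1 of 19 donor cycle genes was called higher and 11 lower, and 1 of 12 cofactors higher and 4 lower. In that fit 2 of 20 repair genes were higher and 2 lower, 1 of 19 TET regulators higher and 4 lower, and 1 of 20 histone methylation genes higher and 6 lower. Their medians were -0.06 for the cofactors, -0.13 for the methyl donor cycle, 0.00 for repair, -0.02 for TET regulators and -0.04 for histone methylation, against 0.00 over all genes. Between scramble and control 2 of 13 cofactors rose (Rif1 and Smchd1), and 2 of 19 methyl donor genes rose and 2 fell, where 8.79% of all genes passed and 4.71% passed as higher. Among the donor genes Mat2a, the S-adenosylmethionine synthetase gene, rose by 0.74 (edgeR adjusted p = 0.0369). Cbs, which sends homocysteine out of the cycle, fell by 0.97 (edgeR adjusted p = 0.00451). Mat2b was lower as well (log2 fold change -0.50, edgeR adjusted p = 0.0296). Apex2 rose among 21 repair genes, Ogdh and Dcaf1 among 19 TET regulators and Nsd2 among 20 histone methylation genes. The shares called were 15.4% of cofactors, 21.1% of donor genes, 4.76% of repair genes, 10.5% of TET regulators and 5% of histone methylation genes, so repair and histone methylation lay below the share of all genes. Cbs passed with any 1 library left out and with the 6 libraries of the comparison alone. Rif1, Smchd1, Mat2a, Mat2b, Apex2, Ogdh, Dcaf1 and Nsd2 did not pass without scramble replicate 1, 2 or 3 or control replicate 1 or 2 (adjusted p up to 0.167, of Smchd1). With the 6 libraries of the comparison alone Rif1, Smchd1, Mat2a, Mat2b, Dcaf1 and Nsd2 did not pass.

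By the correlation of log2 CPM over the 12 libraries, the genes most like Uhrf1 were Mcm2, a replication helicase subunit (r = 0.959), and Heatr3 (0.957). Those most like Hells were Gtpbp4 (0.970) and Nup107 (0.966), and those most like Dnmt1 were Abcf1 (0.951) and Sart3 (0.946). Dnmt3a was most like Micall1 and Ptpn3 (0.969 each), and Dnmt3b like Cluh (0.971) and Selenoi (0.968). Uhrf2 was most like Zkscan17 (0.976) and Slc26a11 (0.971). Tet1 was most like Ccdc82 (0.946) and Cit (0.944), Tet2 like Ankrd26 (0.931) and Cabin1 (0.908), and Tet3 like Hectd4 (0.972) and Cchcr1 (0.965). Tdg had the weakest matches, Armc8 (0.902) and Oxtr (0.889). These are the highest of correlations with the tested genes, leaving out predicted gene models, Rik names and clone names, given as descriptions with no test.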

How the data were processed

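The authors deposited whole-number read counts for 55335 genes in 12 libraries, with no normalization. DRAGEN, DESeq2 1.44.0 and the build mm10 (GRCm38.p6) are named in the submitters' processing notes, with no role for each. The annotation, strand setting and treatment of multi-mapped reads are not given in the sources used here, so genes with near-identical copies or antisense partners are called uncertain. Total counts of 25.8 to 34.0 M per library limit the precision of low genes such as Tet1.

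Genes were kept by filterByExpr (minimum count 10, minimum total 15), normalised with TMM factors and tested by glmQLFit and glmQLFTest of edgeR 4.0.16 (R 4.3.3) on all 12 libraries, 1 coefficient for each group (8 residual degrees of freedom). A gene passed at a Benjamini-Hochberg adjusted p under 0.05 over all 14935 genes. Standard errors were the log2 fold change over the root of the F statistic, and log2 CPM used a prior count of 2. An exact permutation test of 3 against 3 libraries cannot go below p = 0.1, so genes were tested in the model across all genes. The method was tested on simulated data. The 10 genes, the other lists and the naming rule (all 10, and from each list up to 4 genes by smallest adjusted p, of which not all are named; for likeness the 2 highest correlations) were chosen with earlier results of these data known. Gm9855, chosen after its values were seen, is beyond the rule.

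The labels' batch tag numbers the replicates within each arm. Deviations of same-numbered libraries correlated at r = 0.27, 0.28 and 0.48 between KCC-07 and control and at 0.09, 0.15 and 0.42 between siMBD2 and scramble, and at 0.07, 0.02 and 0.13 between scramble and control, whose sharing of batches is unclear. Alternatives were DESeq2 size factors, other filters, the replicate block, the 6 libraries of a comparison alone, DESeq2 1.42.0, a threshold of 0.01, and leaving out each library or every library of replicate 3. Positions came from GENCODE of GRCm38.p6, promoters from RefSeq and copies from BLAST 2.17.0.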

Additional observations from a re-analysis of the deposited data

How the results depend on the processing

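Counts of the 10 genes past the threshold kept within 1.5 times of the values given above under DESeq2 size factors and both other filters in every comparison. With the replicate block 1 passed for KCC-07 (Dnmt3a, with 21.8% of all genes), in place of 0. For the difference of effects 1 passed (Dnmt3a, with 6.90% of all genes), in place of 0. For scramble against control 3 passed (Dnmt3a, Dnmt3b and Hells, with 13.8% of all genes), in place of 1. The block on all 12 libraries changed no other call. Scramble and control carry matching replicate numbers and batch tags, but the library names number the third replicate 4 in control and 3 in scramble. Whether they share batches is unclear, and their same-numbered libraries correlated at 0.07, 0.02 and 0.13. With the 6 libraries of the comparison alone 1 passed for siMBD2 (Dnmt1, with 1.26% of all genes), and with the block 3 did (Dnmt1, Uhrf1 and Hells, with 19.8%). For scramble against control that blocked fit called 0 (2.17% of all genes), a threshold of 0.01 called 0 (1.79%), and DESeq2 called 3 (15.5%). Leaving out 1 library gave 0 to 1 for KCC-07 (2.51% to 13.9% of all genes) and 0 to 1 for the difference (0.0719% to 2.10%). It gave 0 to 0 for siMBD2 (0.0131% to 0.0197%) and 0 to 4 for scramble against control (1.91% to 20.4%). Leaving out every replicate 3 library gave 1, 2 and 7 for KCC-07, the difference and scramble against control (25.6%, 10.6% and 41.1% of all genes). Signs turned for values near 0. Hells with KCC-07 was -0.0129 with the block and -0.0137 in the blocked fit of 6 libraries. Tet1 between scramble and control was 0.00817 in the blocked fit of 6 libraries. Without the replicate 3 libraries Uhrf1 with KCC-07 was 0.0767, Tet2 for the difference 0.21, Tet1 between scramble and control 0.22 and Tdg there -0.00652. With 1 library left out, KCC-07 values ran from -0.0704 to 0.20 for Dnmt1, -0.22 to 0.0454 for Dnmt3b, -0.19 to 0.0977 for Uhrf1, -0.14 to 0.33 for Tet2 and -0.0956 to 0.17 for Hells. The difference ran from -0.10 to 0.20 for Dnmt3b and -0.28 to 0.20 for Tet2, and Uhrf2 with siMBD2 from -0.12 to 0.0512. Between scramble and control Tet1 ran from -0.22 to 0.26, Tet2 from -0.10 to 0.37 and Tet3 from -0.0273 to 0.49. Of the 5 lists of neighbouring genes, 1 list had at most 6 genes higher and 5 lower for KCC-07 (TET regulators), where 25.6% of all genes passed. For scramble against control the most were 10 higher (histone methylation) and 5 lower (repair), where 41.1% of all genes passed. These maxima were all without the replicate 3 libraries. For siMBD2 the most were 2 higher (repair) and 11 lower (methyl donor cycle), in the blocked fit of 6 libraries with 19.8% of all genes. The cause of these shifts was not tested.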
